A study of Mus musculus with 36 samples.

Results

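Bone marrow-derived alveolar macrophages (BM-AΦ) of chimeric mice breathing PM2.5 for 32-weeks were compared with those of mice breathing filtered air (FA), gene by gene. Every gene that averaged 1 FPKM or more in those 6 libraries was followed, which gave 12341 of the 27562 genes listed. FPKM are fragment numbers scaled for transcript length and sequencing depth, and since no read counts were used here their counting precision is unknown. At the edge of this limit, Igkv14-111 was just left out with a mean of 0.9993 FPKM and Zdhhc14 was just included with 1.0004 FPKM.

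Young adult male C57BL/6J mice (CD45.2) had been lethally irradiated with the chest shielded, given busulfan and transplanted with marrow of B6.SJL-Ptprca Pepcb/BoyJ donors of the same age and sex (CD45.1), so FA and PM2.5 mice alike were chimeras whose lungs had been spared the radiation. They then spent 32-weeks in chambers fed with filtered air or with concentrated outdoor fine particles. AΦ were sorted from digested lung as CD64+ CD11c high CD11b low cells and split by CD45 form into BM-AΦ (CD45.1) and tissue-resident AΦ (TR-AΦ, CD45.2). Each group held 3 libraries, numbered 0, 1 and 2, described in the study's methods as biological replicates, and the 6 BM-AΦ libraries are part of a series of 36 in 12 groups. The labels give the BM-AΦ libraries only as MF1, lung macrophages of strain C57BL/6, and their reading as CD45.1 comes from the study's supplement.

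Alveolar macrophages live on the air side of the lung, where they take up inhaled particles, dying cells and surfactant. In an undisturbed lung they renew themselves locally, and after loss they are refilled from blood monocytes, which take on the alveolar program in the airspace under GM-CSF and TGF-beta, with the nuclear receptor PPAR-gamma as a central regulator. Loading with particles is classically read through NF-kappa B, AP-1, the oxidative stress factor NRF2 and the aryl hydrocarbon receptor. Some of the lists of genes used here were built around those systems, and the others around further roles.

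The cells carried the alveolar program in both groups. Of 24 alveolar macrophage markers 23 were listed and all 23 passed the limit, with a median log2 fold change of -0.06 for PM2.5 minus FA. Siglecf, a surface lectin typical of AΦ, lay between 94.1 and 106 FPKM with FA and between 82.3 and 111 FPKM with PM2.5. All 6 of its values lay below the TR-AΦ libraries of the same age, which held 115 to 157 FPKM. Pparg lay between 63.1 and 76.8 FPKM in the 6 libraries, beside 67.8 to 89.4 FPKM in TR-AΦ. Marco, a scavenger receptor for unopsonized particles, was the weakest of the 23 markers. It was at 2.08, 1.05 and 0.743 FPKM with FA and 1.503, 2.07 and 6.85 FPKM with PM2.5. These values too were all below TR-AΦ, which held 23.8 to 77.8 FPKM. Markers of T and NK cells (0 of 10) and of eosinophils and basophils (0 of 5) did not reach the limit. Of 12 neutrophil markers 4 passed it and 5, Ly6g among them, were listed at 0 in all 6 libraries. Dendritic cell markers passed at 7 of 8. Their sums were 9.61 to 34.6 FPKM with FA and 15.8 to 21.5 FPKM with PM2.5, beside 2.29 to 6.51 FPKM in TR-AΦ. The monocyte marker Ccr2 ran from 6.20 to 36.8 FPKM, beside 2.09 to 6.01 FPKM in TR-AΦ. Libraries differed in traces of other cells. The 4 red cell genes that passed were high in both libraries numbered 2, with summed red cell markers reaching 44.4 FPKM with FA and 42.1 FPKM with PM2.5, and FA library 0 held the highest and FA library 1 the lowest interstitial macrophage signal, from 738 down to 100.2 FPKM summed over 12 markers. Log2(FPKM + 1) of the 12341 genes correlated (Pearson's r across genes, which are not independent) between 0.852 and 0.858 within FA, between 0.833 and 0.850 within PM2.5, and between 0.838 and 0.855 across the exposures.

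With limma on log2(FPKM + 1), 2 genes passed an adjusted p of 0.05 (0.0162% of those tested), both higher with PM2.5 and both listed at 0 in every FA library. An unadjusted p under 0.05 was met by 282 genes (2.29%), 127 higher (1.03%) and 155 lower (1.26%) with PM2.5. Without any difference this cutoff would be met by about 5% of genes. Of the 282 genes 18.4% were pseudogenes and 14.2% small RNA genes, beside 7.90% and 6.22% of all genes tested. The 3 PM2.5 and the 3 FA values did not overlap in 811 genes (6.57%), with 348 higher (2.82%) and 463 lower (3.75%). Such a split of 3 against 3 libraries has an exact permutation p of 0.1, so lack of overlap alone passes no threshold. A log2 fold change of at least 1 in size was seen in 579 genes (4.69%). In all, 53.3% of genes lay lower and 46.7% higher with PM2.5, the median log2 fold change was -0.015, and 5% of genes lay below -0.47 and 5% above 0.52. The typical standard error of a gene was 0.24 on this scale, and the added 1 FPKM shrinks the fold change of weakly expressed genes. TR-AΦ at the same age gave 0 of the same 12341 genes past the adjusted threshold by limma and 377 (3.05%) at an unadjusted p under 0.05, 216 higher (1.75%) and 161 lower (1.3%). The TR-AΦ groups did not overlap in 740 genes (6.0%), 394 higher (3.19%) and 346 lower (2.8%). The test of whether the PM2.5 effect differed between BM-AΦ and TR-AΦ was passed by the same 2 genes (0.0162%), with 233 genes (1.89%) at an unadjusted p under 0.05, 101 of them higher (0.818%) and 132 lower (1.07%) in BM-AΦ relative to TR-AΦ.

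The genes past the threshold were Gm26917 and Cdk8. Gm26917, at chr17:39843013-39846341 (mm10), is annotated in GENCODE M21 as a long noncoding RNA gene. Which RNA its reads came from was not tested. Cdk8 encodes the kinase of the Mediator complex and lies at chr5:146231250-146302874. Gm26917 was listed at 0 in FA libraries 0, 1 and 2 and stood at 35410, 26893 and 21137 FPKM in the PM2.5 libraries. Over the whole series it was above 0 in the other 33 libraries, from 18541 to 50636 FPKM with a median of 28243. Only the 3 BM-AΦ libraries of FA mice were at 0, and the groups did not overlap. Cdk8 was at 0 in the same 3 libraries and at 10.7, 12.5 and 11.2 FPKM with PM2.5, inside the range of 7.68 to 17.3 FPKM of the 30 libraries above 0. The other 3 libraries with Cdk8 at 0 were those of AΦ after 4-weeks of PM2.5. Gm15739, a processed pseudogene that the deposited table places at the same locus as Cdk8, was also at 0 in all 6 of these libraries. Adjusted p (limma) were 2.93e-13 for Gm26917 and 2.12e-09 for Cdk8 for PM2.5 against FA, and 2.78e-11 and 1.5e-07 for the difference in effect between BM-AΦ and TR-AΦ. An exact 0 can be a failed estimate, so both genes are reported only as listed at 0, with no fold change, and the p measure the distance from these zeros rather than an effect of exposure. Among all genes listed, Gm26917 was the only 1 at 0 in the whole BM-AΦ FA group and above 0 in all 33 other libraries. Other groups held such zeros as well. Ptpn22 (median of 12.9 FPKM elsewhere) and Gm45191 were at 0 only in TR-AΦ with FA at 32-weeks. Ccpg1os was so in monocytes after 4-weeks of PM2.5, and Rnf113a1 in the Mono1 monocytes with FA at 32-weeks. A zero in all 3 libraries of a group was found for 174 members with FA (1.41%) and 140 with PM2.5 (1.13%). Of these 314 genes 76.1% were small RNA genes, 19.7% were pseudogenes and 2 were protein-coding, Cdk8 and Gm5129. When these 314 genes were left out, an alternative added with the data in view, 0 of 12027 genes passed by limma, with 246 at an unadjusted p under 0.05.

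**Figure D1:**
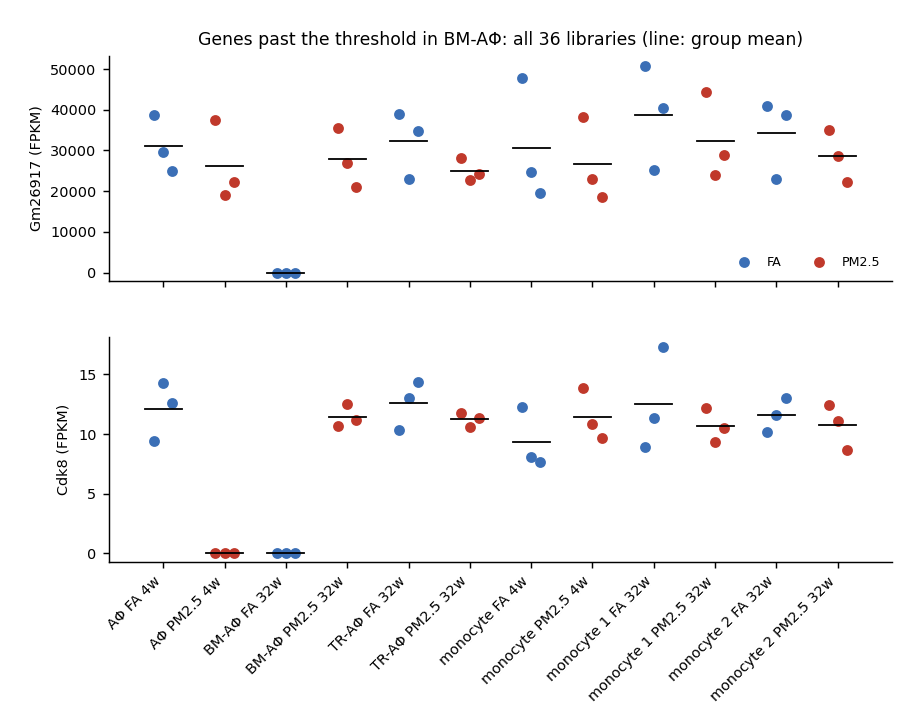
FPKM of Gm26917 (top) and Cdk8 (bottom) in each of the 36 libraries by group, with FA in blue, PM2.5 in red and black lines for group means. The BM-AΦ FA group at 32-weeks is at 0 for both genes, and the only other group at 0 is AΦ after 4-weeks of PM2.5 for Cdk8.

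**Figure D2:**
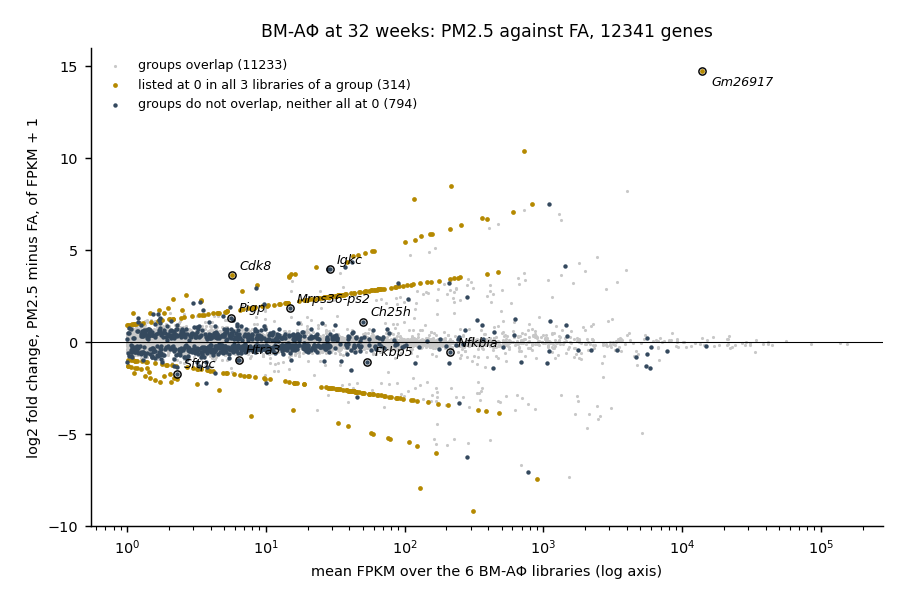
Log2 fold change of FPKM + 1, PM2.5 minus FA, against the mean FPKM over the 6 BM-AΦ libraries on a log axis, 1 point per gene. The 314 genes with a group wholly at 0 are gold, the other genes without overlap are dark and the rest grey, and 5% of all genes lie below -0.47 and 5% above 0.52.

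Outside these zeros the smallest adjusted p (limma) was 0.598, that of Htra3 among others. Htra3 (chr5:35652023-35679782), a secreted serine protease, went from 6.58, 10.3 and 9.36 FPKM with FA to 4.10, 4.05 and 3.83 FPKM with PM2.5, a log2 fold change of -0.94 (SE 0.20), with means of 8.74 ± 1.92 and 3.99 ± 0.143 FPKM (SD, n = 3). All 3 PM2.5 libraries lay under the lowest FA library, and the log2 fold change stayed between -1.11 and -0.83 when any 1 library was left out. In TR-AΦ its values overlapped, with 6.34 to 8.04 FPKM with FA and 5.04 to 8.16 FPKM with PM2.5. The interaction had an unadjusted p (limma) of 0.0059 and an adjusted p of 0.99999. Htra3 was picked by its BM-AΦ difference, which the interaction contains, so the unadjusted p is a description.

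Other genes at a mean of at least 5 FPKM whose groups did not overlap, taken by the smallest p, included the following on the lower side. Exosc8, a subunit of the RNA exosome, read 9.36, 6.61 and 8.63 FPKM with FA and 5.55, 4.49 and 5.09 FPKM with PM2.5. In TR-AΦ the order was turned, with 4.00, 4.58 and 6.12 FPKM with FA and 8.74, 7.88 and 8.19 FPKM with PM2.5. Neither pair of groups overlapped, yet the adjusted p of the interaction was 0.136. Mrs2, the magnesium channel of mitochondria, was at 9.02 to 10.8 FPKM with FA and 5.94 to 7.24 FPKM with PM2.5 (log2 fold change -0.55, SE 0.15). Ciao1, of the cytosolic iron-sulfur assembly machinery, was at 16.6 to 20.3 FPKM and 8.78 to 14.9 FPKM. Parp1, the poly(ADP-ribose) polymerase that senses broken DNA, was at 5.56 to 6.94 FPKM and 3.38 to 4.49 FPKM. The pore-forming pyroptosis effector Gsdmd held very steady values, 9.58, 9.45 and 9.03 FPKM with FA and 6.92, 6.54 and 6.84 FPKM with PM2.5, so that its small log2 fold change of -0.41 (SE 0.14) still left the groups apart. Ptprs, a receptor tyrosine phosphatase, and Napsa, the aspartic protease napsin A, had log2 fold changes of -0.45 (SE 0.15) and -0.61 (SE 0.22). Rps4l, a processed copy of a ribosomal protein gene, was at 7.13 to 9.72 FPKM with FA and 3.30 to 5.29 FPKM with PM2.5, far under the 23.2 to 38.1 FPKM of TR-AΦ. The snoRNA gene Gm25091 was at 6150 to 9319 FPKM with FA and 2241 to 3871 FPKM with PM2.5. The adjusted p of PM2.5 against FA (limma) was 0.9999 for each of these genes. Like Htra3, Parp1, Rps4l and Napsa averaged under 5 FPKM with PM2.5 and met that limit only through the FA group.

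On the higher side, the gene with the smallest p was Tmem256, at 13.1, 19.1 and 15.5 FPKM with FA and 31.4, 28.0 and 20.5 FPKM with PM2.5, a log2 fold change of 0.70 (SE 0.19). Pigp, needed for the first step of making glycosylphosphatidylinositol anchors, stood at 2.40, 3.33 and 2.49 FPKM with FA and 9.99, 6.43 and 9.24 FPKM with PM2.5, a log2 fold change of 1.34 (SE 0.38). Pigp averaged 2.74 FPKM with FA and 8.56 FPKM with PM2.5, so it met the limit of 5 FPKM only through the PM2.5 group. Lack of overlap was a condition for naming it, so its gap is a description. In TR-AΦ both genes overlapped between exposures, and their interactions had unadjusted p (limma) of 0.0038 and 0.0074 and an adjusted p of 0.99999 each. Both were picked by their BM-AΦ difference, which the interaction contains, so the unadjusted p are a description. Rbm12, an RNA-binding protein, was at 6.55 to 6.87 FPKM with FA and 9.79 to 11.8 FPKM with PM2.5, and its values in TR-AΦ also did not overlap, at 4.601 to 7.53 FPKM and 7.62 to 10.03 FPKM. Lasp1, an actin-binding protein of focal contacts, was at 25.3 to 30.8 FPKM and 35.8 to 38.7 FPKM. Sec23b of the COPII coat had a log2 fold change of 0.46 (SE 0.16), and Suclg2, a citric acid cycle enzyme, one of 0.58 (SE 0.21). Suclg2 averaged 3.94 FPKM with FA and likewise met the limit only through the PM2.5 group. The list ended with Fam50a, 0610012G03Rik and 3 processed pseudogenes, Mrps36-ps2, Gm7846 and Gm8186, whose reads may be shared with their parent genes. The adjusted p (limma) was 0.9999 for each gene named here.

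**Figure D3:**
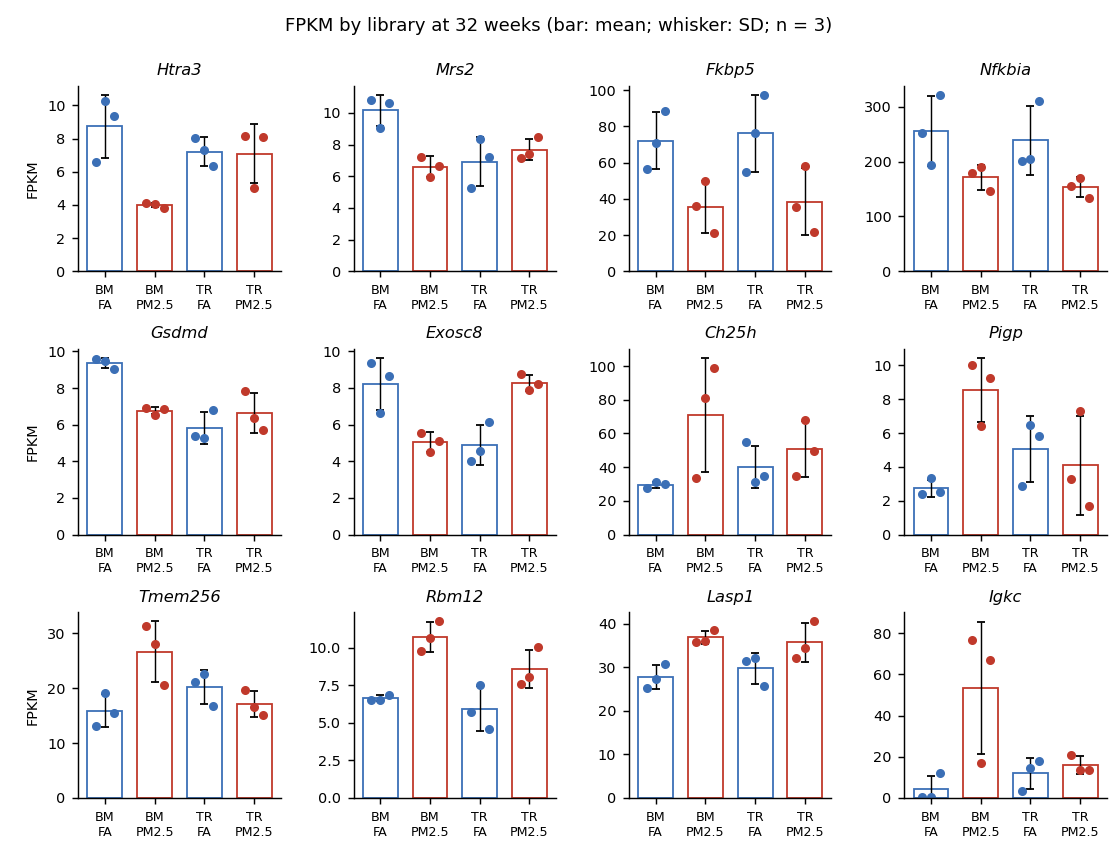
FPKM of 12 genes in each library at 32-weeks, BM-AΦ on the left and TR-AΦ on the right of each panel, with FA in blue and PM2.5 in red, bars for means and whiskers for SD (n = 3). Nfkbia lies lower with PM2.5 without overlap in both origins, Htra3, Mrs2 and Fkbp5 without overlap in BM-AΦ, Exosc8 turns its order between them, and Pigp and Igkc stand out in BM-AΦ with PM2.5.

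Genes of the NF-kappa B system leaned to lower values. NF-kappa B subunits are held in the cytoplasm by inhibitors that the pathway itself transcribes, so Nfkbia, Tnfaip3 and Zc3h12a, all brakes on the pathway, serve as readouts of its activity. Of 16 subunits and feedback genes tested 15 were lower and 1 was higher with PM2.5, with a median log2 fold change of -0.20 beside -0.015 for all genes. None passed the adjusted threshold, 2 had an unadjusted p under 0.05 (2.29% of all genes), and 2 did not overlap (6.57% of all genes). Nfkbia (chr12:55489411-55492647), the inhibitor I-kappa B alpha and the most abundant of them, read 252, 194 and 322 FPKM with FA and 179, 190 and 146 FPKM with PM2.5, a log2 fold change of -0.56 (SE 0.21). The highest PM2.5 library and the lowest FA library were close to touching. TR-AΦ listed 201, 205 and 310 FPKM with FA and 156, 171 and 134 FPKM with PM2.5. Zc3h12a, an RNase that destroys cytokine mRNA, read 52.4, 48.2 and 55.5 FPKM with FA and 36.6, 44.6 and 26.4 FPKM with PM2.5. Tnfaip3, the ubiquitin-editing enzyme A20, overlapped, at 130, 57.1 and 126 FPKM and 73.3, 77.6 and 64.2 FPKM. FA library 1 was the lowest of the FA libraries for all 3. The median of the list in TR-AΦ was -0.11, with 11 of 16 genes lower. Left without PM2.5 library 2 the BM-AΦ median was -0.08, without FA library 1 it was -0.31, and without both libraries numbered 2, also an added alternative, it was -0.03.

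The start regions of Nfkbia and Tnfaip3 are given because the list turns on these feedback genes (RefSeq, GRCm38.p6, 250 bases before the start to 50 after it, with matches of the kappa B consensus in capitals on either strand). The first is chr12:55492598-55492897 on the minus strand, where the match begins 29 bases before the start. The second is chr10:19015361-19015660 on the minus strand, with matches 125 and 12 bases before it. Tnfaip3 has another start region in the table, chr10:19011914-19012213, which held no match and is not printed.
Nfkbia: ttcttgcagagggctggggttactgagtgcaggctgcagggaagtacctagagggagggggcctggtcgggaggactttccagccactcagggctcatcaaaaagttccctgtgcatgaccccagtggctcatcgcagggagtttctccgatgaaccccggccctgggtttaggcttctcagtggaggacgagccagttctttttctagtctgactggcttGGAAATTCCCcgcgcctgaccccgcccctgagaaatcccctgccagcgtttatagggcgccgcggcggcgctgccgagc
Tnfaip3: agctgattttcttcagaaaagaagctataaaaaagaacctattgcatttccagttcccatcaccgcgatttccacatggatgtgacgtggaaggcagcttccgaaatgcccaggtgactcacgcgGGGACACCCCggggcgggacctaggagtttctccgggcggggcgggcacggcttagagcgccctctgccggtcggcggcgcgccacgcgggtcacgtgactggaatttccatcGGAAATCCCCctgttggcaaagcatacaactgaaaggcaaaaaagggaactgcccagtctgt
Of the 16 genes 13 were in the promoter table with 18 start regions, and 10 of these regions (55.6%) held the consensus, beside 8.46% of all 32851 regions of the same length. The start region of Zc3h12a held none. The list was chosen for known roles in the NF-kappa B system, so this share describes the list and not these libraries. A match is a stretch of letters and was not measured as binding.

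Cytokines, adhesion molecules and chemokines, listed by role and not as NF-kappa B targets, followed no common direction past the spread of libraries. The 17 cytokines and adhesion molecules had a median of -0.12 (6 higher, 11 lower) and the 17 chemokines a median of -0.08 (8 higher, 9 lower). Both turned sign without FA library 2, to 0.07 and 0.13, and were -0.32 and -0.53 without FA library 1. Tnf was at 56.7, 51.6 and 75.3 FPKM with FA and 53.2, 50.7 and 59.6 FPKM with PM2.5. Cxcl2, a neutrophil attractant, was at 265, 107 and 288 FPKM and 103, 152 and 104 FPKM, so that FA library 1 lay among the PM2.5 values. Vcam1 did not overlap, at 8.16, 2.69 and 3.42 FPKM with FA and 1.66, 2.13 and 2.28 FPKM with PM2.5, with an unadjusted p of 0.14. Csf1, the macrophage growth factor, was at 0.768, 0.510 and 1.06 FPKM with FA and 0.641, 4.10 and 2.84 FPKM with PM2.5. It passed the limit only through the PM2.5 group, so its unadjusted p (limma) of 0.047 is a description. Cxcr1, a chemokine receptor, was at 10.1, 7.04 and 33.6 FPKM with FA and 7.54, 34.5 and 49.0 FPKM with PM2.5. Its BM-AΦ groups overlapped, with FA library 2 and PM2.5 libraries 1 and 2 far above the rest. In TR-AΦ its groups did not overlap, at 5.301 to 17.3 FPKM with FA and 19.1 to 35.97 FPKM with PM2.5. The unadjusted p (limma) was 0.097 for that TR-AΦ difference and 0.604 for the interaction.

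Immediate early genes, switched on within minutes of a stimulus, were tested at 26 of 26, with 24 lower, 2 higher and a median of -0.21. The groups did not overlap in 0 of them, beside 6.57% of all genes. Fos, an AP-1 subunit and the most abundant, was at 1239, 399 and 666 FPKM with FA and 648, 591 and 464 FPKM with PM2.5. FA library 0 stood above all others, also for Jun at 566 FPKM against 105 to 238 FPKM and for Klf2 at 201 FPKM against 25.4 to 40.3 FPKM. Without that library the list median was -0.02, and it was -0.38 without FA library 1. Heat shock chaperones had the same high library. Their median was -0.15 (3 higher, 12 lower), and it was -0.01 without FA library 0 and -0.42 without PM2.5 library 1. Hspa1b, an inducible chaperone, was at 39.1 FPKM in FA library 0 and between 2.79 and 13.4 FPKM in the other 5 libraries. TR-AΦ with FA numbered 0 was likewise high, with Klf2 at 211 FPKM and Hspa1b at 22.1 FPKM. The labels do not say whether libraries of 1 number came from 1 mouse.

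Glucocorticoid targets had the lowest median of the response lists, -0.35 over 11 genes, with 9 lower and 2 higher and a median of -0.44 in TR-AΦ. Fkbp5 (chr17:28399095-28517524), a cochaperone of the glucocorticoid receptor and a standard readout of its activity, was at 56.7, 71.1 and 88.3 FPKM with FA and at 35.9, 49.7 and 20.9 FPKM with PM2.5. Its log2 fold change was -1.06 (SE 0.34), with an unadjusted p (limma) of 0.0073 and an adjusted p of 0.9999. The groups did not overlap, which was a condition for naming it. In TR-AΦ the values were 54.7, 76.6 and 97.4 FPKM with FA and 35.4, 58.2 and 21.6 FPKM with PM2.5, so the TR-AΦ groups overlapped, and within each exposure the libraries stood in the same order as in BM-AΦ. Klf9 was at 24.9, 35.0 and 29.2 FPKM with FA and 24.0, 25.9 and 13.3 FPKM with PM2.5. Tsc22d3 (GILZ) was at 170, 92.6 and 77.2 FPKM and 103, 87.9 and 40.8 FPKM. PM2.5 library 2 was the lowest for each of Fkbp5, Klf9, Tsc22d3 and the clock gene Per1, where it held 10.6 FPKM against 29.3 to 40.3 FPKM in the other 5. Without that library the list median was -0.11, and Fkbp5 had a log2 fold change of -0.73. Nr3c1, the receptor itself, had a log2 fold change of 0.10 (SE 0.19). The 14 clock genes had a median of -0.15 (3 higher, 11 lower) and -0.02 without PM2.5 library 2. Per2 ranged from 4.29 to 16.4 FPKM within FA and from 2.55 to 8.38 FPKM within PM2.5, with library 1 the highest and library 2 the lowest in both groups. The part of the clock genes in the values of the glucocorticoid list was not tested.

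**Figure D4:**
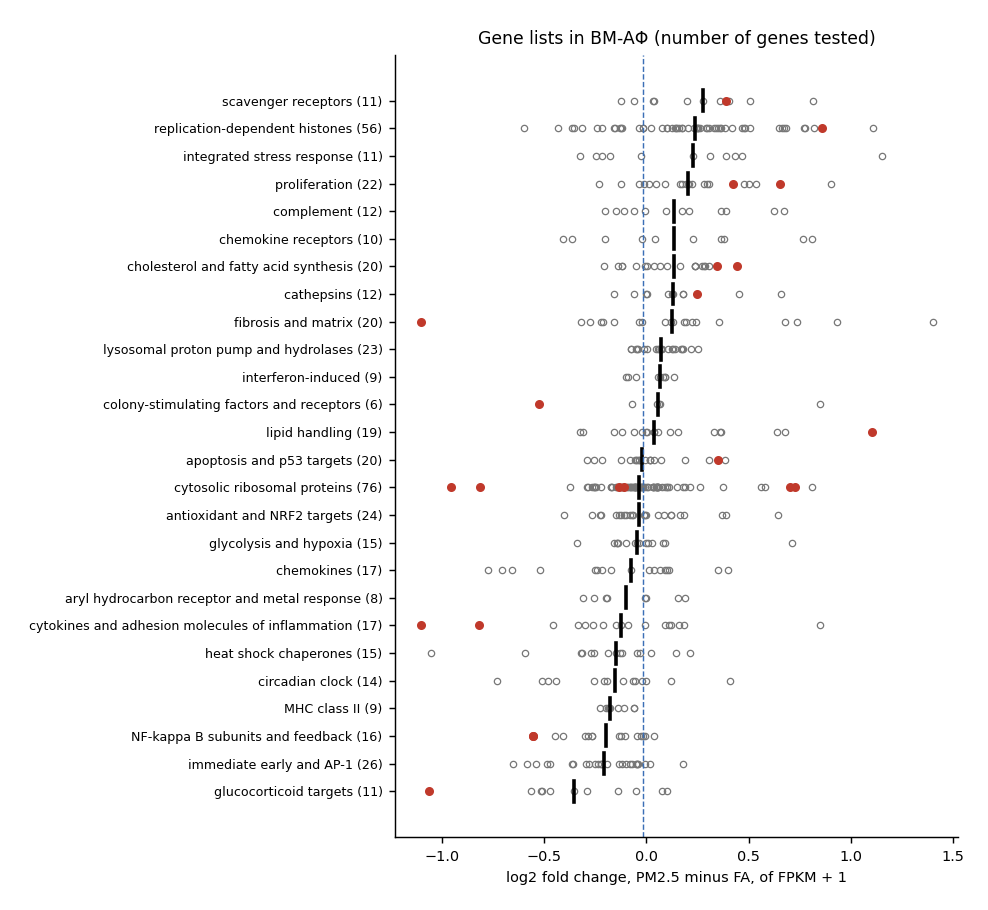
Log2 fold change of FPKM + 1, PM2.5 minus FA, of each tested gene of the response lists, sorted by list median, with black bars for medians, filled red points for genes whose groups do not overlap and a dashed line for the median of all genes. Glucocorticoid targets have the lowest median (-0.35) and scavenger receptors the highest (0.28), and filled points are few in every list.

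Uptake and digestion genes had medians above 0, with no member past the adjusted threshold. Scavenger receptors had the highest list median, 0.28, with 9 of 11 higher and 1 without overlap (6.57% of all genes), and their median in TR-AΦ was 0.11. It was 0.12 without FA library 1 or PM2.5 library 2 and 0.13 without PM2.5 library 1. Clec7a (dectin-1, a beta-glucan receptor) was at 539, 453 and 596 FPKM with FA and 602, 630 and 866 FPKM with PM2.5, the lowest PM2.5 library only just above the highest FA library. Cd68 was at 517, 498 and 659 FPKM and 609, 643 and 769 FPKM. Cathepsins had a median of 0.13 (9 higher, 3 lower) and lysosomal pump subunits and hydrolases a median of 0.07 (17 higher, 6 lower). With 1 library left out these ran from 0.04 (PM2.5 library 2) to 0.24 (PM2.5 library 0) and from 0.00039 (FA library 1) to 0.22 (FA library 2). Ctsa was at 58.4, 56.6 and 63.4 FPKM with FA and 71.8, 69.5 and 70.6 FPKM with PM2.5, an unadjusted p of 0.17. Ctsk, a collagen-cleaving protease, was at 80.8, 59.7 and 171 FPKM and 81.5, 181 and 223 FPKM, and it split the libraries unlike the exposures. Gpnmb and Mfge8 split them the same way, low in FA libraries 0 and 1 and in PM2.5 library 0. Gpnmb was at 12.2 to 17.9 FPKM in those 3 and 54.6 to 79.0 FPKM in the others, and Mfge8 at 6.04 to 8.08 FPKM and 37.6 to 45.8 FPKM.

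Lipid handling, a main task of cells that clear surfactant, showed single genes rather than a shift of the list (median 0.04, 12 of 19 higher). Ch25h, which makes the oxysterol 25-hydroxycholesterol, was steady with FA at 27.5, 31.1 and 29.8 FPKM and ran to 33.4, 80.9 and 98.8 FPKM with PM2.5, a log2 fold change of 1.11 (SE 0.45) with an unadjusted p of 0.027. PM2.5 library 0 was close to FA. In TR-AΦ Ch25h overlapped, at 31.5 to 54.7 FPKM with FA and 34.7 to 68.3 FPKM with PM2.5. Cidec, a lipid droplet protein, had an unadjusted p of 0.023 and a log2 fold change of -0.33 (SE 0.13), with 135, 156 and 143 FPKM and 136, 97.8 and 115 FPKM. The smallest adjusted p (limma) of the lipid handling list, Ch25h and Cidec included, was 0.9999. Of 20 genes of cholesterol and fatty acid synthesis 14 were higher, with a median of 0.13 beside 0.0049 in TR-AΦ. Sqle, the squalene epoxidase, was at 13.03, 11.8 and 9.90 FPKM with FA and 14.0, 19.4 and 15.04 FPKM with PM2.5. Its groups were apart, with an unadjusted p of 0.15.

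Particle sensors and oxidative defence showed little. The 24 antioxidant and NRF2 target genes had a median of -0.04 (9 higher, 15 lower) with 0 groups apart (6.57% of all genes). Ftl1, ferritin light chain, was at 3489, 3297 and 3823 FPKM with FA and 4027, 3998 and 3521 FPKM with PM2.5. Hmox1, heme oxygenase 1, was at 66.9, 54.8 and 81.2 FPKM and 47.2, 58.8 and 45.6 FPKM. The 8 aryl hydrocarbon receptor and metal response genes had a median of -0.10 (3 higher, 5 lower), and Mt1, the metal-binding metallothionein, was at 101 to 129 FPKM with FA and 114 to 133 FPKM with PM2.5. Interferon-induced genes were tested at 9 of 20, with a median of 0.06 (6 higher, 3 lower) and 0 groups apart (6.57% of all genes). Glycolysis and hypoxia genes had a median of -0.05 over 15, apoptosis and p53 targets -0.02 over 20, and cytosolic ribosomal proteins -0.03 over 76. The integrated stress response list had a median of 0.23 (6 of 11 higher), which was 0.01 to 0.17 with any 1 library left out and turned to -0.10 over its genes at 5 FPKM or more. Asns, asparagine synthetase, had an unadjusted p of 0.023, at 0.517, 0.348 and 2.59 FPKM with FA and 1.63, 3.53 and 5.78 FPKM with PM2.5. The smallest adjusted p (limma) of its list was 0.9999.

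All 9 genes of antigen presentation on MHC class II were lower, by small steps, from -0.23 to -0.06. Their median was -0.18, with 0 groups apart (6.57% of all genes). Cd74, the invariant chain, was at 3407, 2804 and 3301 FPKM with FA and 3807, 2430 and 2362 FPKM with PM2.5. PM2.5 library 0 lay above every FA library, for H2-Ab1 as well, where it held 1514 FPKM against 721 and 875 FPKM in the other PM2.5 libraries and 928 to 1464 FPKM with FA. With 1 library left out the median ran from -0.30 (PM2.5 library 0) to -0.05 (FA library 0). TR-AΦ had a median of -0.10, with 8 of 9 lower.

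Cell cycle genes were mostly above their FA values. Of 22 proliferation genes 18 were higher, with a median of 0.21, 0 of 22 past the adjusted threshold and 2 without overlap (6.57% of all genes). Kifc1, a mitotic kinesin, was at 1.71, 0.864 and 1.61 FPKM with FA and 2.76, 1.97 and 3.58 FPKM with PM2.5, and Aurkb, the kinase of cytokinesis, at 2.03, 1.45 and 2.42 FPKM and 2.73, 2.79 and 3.36 FPKM. Pcna, the most abundant, was at 44.4 to 52.2 FPKM and 43.7 to 54.4 FPKM. Without PM2.5 library 2 the median turned to -0.07 and without PM2.5 library 1 it was 0.48, and in TR-AΦ the PM2.5 library numbered 2 was also the highest of the list. Replication-dependent histones, whose mRNAs lack a poly(A) tail, were tested at 56 of 67, with 41 higher, 15 lower and a median of 0.24. Hist1h4k was at 51.7, 46.5 and 84.8 FPKM with FA and 207, 84.5 and 120 FPKM with PM2.5, and Hist4h4, the member whose groups were apart, at 0.446 to 1.62 FPKM and 2.49 to 2.99 FPKM. Their median was -0.09 without PM2.5 library 0 and 0.50 without PM2.5 library 1. The libraries that carried the 2 lists were thus not the same.

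Matrix and fibrosis genes had a median of 0.13 (12 of 20 higher), which was -0.06 without FA library 1. Fstl1, a secreted glycoprotein, was listed at 0, 0.166 and 5.63 FPKM with FA and at 0.334, 5.51 and 15.4 FPKM with PM2.5, a log2 fold change of 1.40 (SE 0.78) with an unadjusted p of 0.092. Its BM-AΦ groups overlapped, whereas in TR-AΦ it was at 0 to 0.560 FPKM with FA and 1.17 to 4.24 FPKM with PM2.5, and the interaction had an unadjusted p of 0.93. Fn1, fibronectin, was at 386, 184 and 371 FPKM and 313, 328 and 332 FPKM. The 10 chemokine receptors had a median of 0.13 (6 higher, 4 lower) and the 6 colony-stimulating factors and receptors a median of 0.06 (4 higher, 2 lower). The 12 complement genes had a median of 0.14, which was -0.32 without FA library 1 and 0.41 without FA library 0, the libraries with the least and the most interstitial macrophage signal. C1qa was at 126, 15.5 and 69.0 FPKM with FA and 69.8, 44.3 and 64.6 FPKM with PM2.5. The 7 interstitial macrophage genes tested had a median of 0.04, and 11 monocyte genes a median of 0.15 (8 higher). With 1 library left out these ran from -0.66 (FA library 1) to 0.62 (FA library 0) and from -0.09 (FA library 1) to 0.22 (FA library 0), so both changed sign. In bulk RNA of sorted cells, a change in the share of such cells and a change in RNA per cell cannot be told apart.

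Among marker lists of other cells, B and plasma cell genes and epithelial genes had the medians farthest from 0. Igkc, the kappa light chain, was at 0.420, 0.322 and 11.9 FPKM with FA and 76.7, 16.8 and 67.1 FPKM with PM2.5, a log2 fold change of 3.98 (SE 1.64) with an unadjusted p of 0.029. Ighm was at 5.10, 0.398 and 0.689 FPKM and 6.70, 5.12 and 14.99 FPKM, and Jchain at 0, 0.111 and 1.57 FPKM and 3.72, 0.592 and 4.34 FPKM. Igkc and Ighm did not overlap. These 3 of 10 B and plasma cell genes passed the limit, all higher, with a median of 1.90 that stayed between 1.496 and 2.57 without any 1 library and was 0.15 over all 10 listed genes, and list sums were 0.830 to 15.1 FPKM with FA and 23.2 to 88.0 FPKM with PM2.5. The B cell genes Ms4a1, Cd79a, Cd79b and Pax5 were each under 1 FPKM in all 6 libraries. TR-AΦ held 3.14 to 21.03 FPKM of Igkc, with overlap between exposures. Epithelial transcripts were on the opposite side, with a median of -0.94 over the 4 of 10 genes that passed the limit, which was -0.14 over all 10 and -0.16 over the 3 genes at 5 FPKM or more. Their library means overlapped, at 3.496 to 4.71 with FA and 2.56 to 3.66 with PM2.5. Sftpc, surfactant protein C of type 2 cells, was at 1.74, 2.10 and 8.83 FPKM with FA and 0.347, 0 and 0.745 FPKM with PM2.5, and Scgb1a1, the club cell secretory protein, at 112, 1.38 and 42.2 FPKM and 1.82, 0 and 10.1 FPKM. Sftpc passed the limit only through the FA group, with means of 4.22 FPKM and 0.364 FPKM. Its difference and its part in the list median are thus a description. Epcam and Cdh1 overlapped, at 40.8 to 79.0 FPKM and 17.9 to 30.8 FPKM. TR-AΦ held them at 36.7 to 62.4 FPKM and 17.9 to 30.3 FPKM. List sums were 109 to 200 FPKM with FA and 74.0 to 105 FPKM with PM2.5. Epcam and Cdh1 gave 77.0 and 27.2 FPKM of the 109 FPKM in FA library 1, while Scgb1a1 gave 112 of the 200 FPKM in FA library 0. Whether RNA of Epcam and Cdh1 came from epithelium or from the macrophages was not tested, so the sums do not measure epithelium alone. The adjusted p (limma) was 0.9999 for all tested genes of both lists, and the part of other cells in the macrophage genes was not tested.

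**Figure D5:**
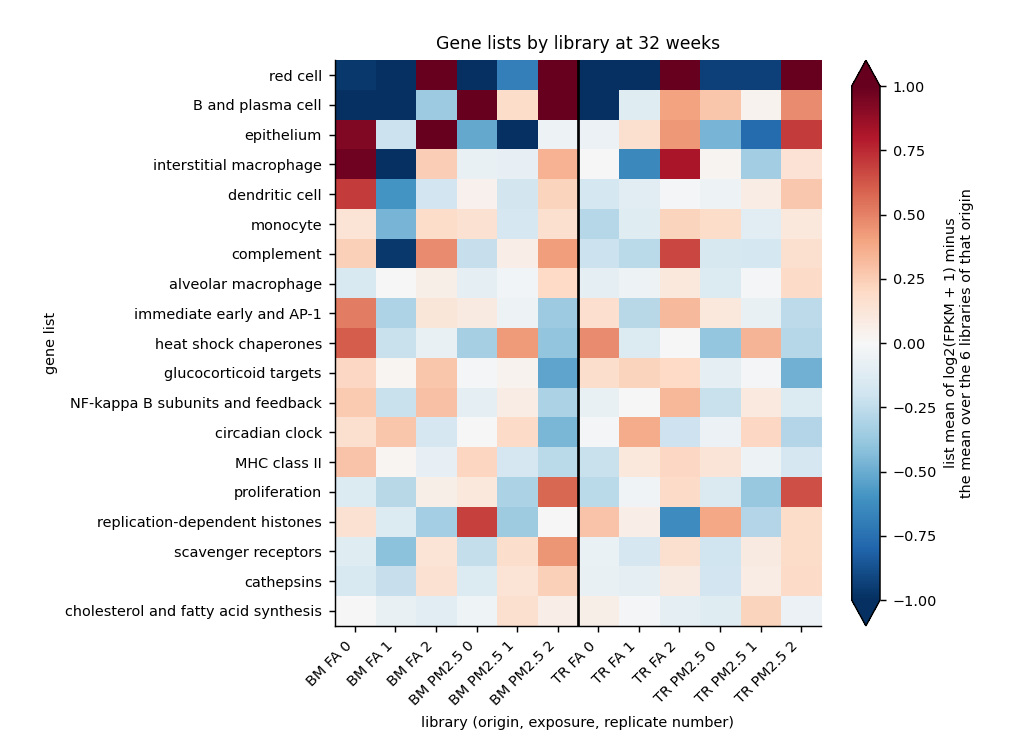
Mean log2(FPKM + 1) of the tested genes of 19 lists in each BM-AΦ and TR-AΦ library at 32-weeks, shown as the difference from the mean over the 6 libraries of that origin (red above, blue below, with larger differences shown at the ends of the scale, -1 and 1). Heat shock genes are highest in FA library 0 and PM2.5 library 1 of both origins, glucocorticoid targets lowest in PM2.5 library 2 of both, and red cell genes high in all libraries numbered 2.

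The library patterns just given recurred across origins. The mean log2(FPKM + 1) of heat shock genes in BM-AΦ was 5.33, 4.51 and 4.65 with FA and 4.39, 5.15 and 4.33 with PM2.5, and in TR-AΦ it was 5.05, 4.44 and 4.58 and 4.20, 4.92 and 4.30. That of glucocorticoid targets was 5.5004, 5.31 and 5.57 with FA and 5.27, 5.32 and 4.76 with PM2.5 in BM-AΦ, and 5.45, 5.51 and 5.48 and 5.19, 5.26 and 4.80 in TR-AΦ. Heat shock means overlapped between the exposures in both origins. Those of glucocorticoid targets overlapped in BM-AΦ and did not in TR-AΦ. Library means of the 3 B and plasma cell genes that passed the limit were 0.35 to 1.93 with FA and 2.48 to 4.17 with PM2.5 in BM-AΦ, and since Jchain passed only through the PM2.5 group this gap is a description.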

How the data were processed

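RNA of sorted AΦ and monocytes was sequenced by the authors with a stranded kit, aligned to mm10 with STAR under GENCODE guidance and quantified with Cufflinks, and they deposited 1 table of FPKM per gene for 36 libraries in 12 groups. The annotation release is not given in the sources used here. The deposited locus starts were 1 less than those of GENCODE M21 for 15463 of 27413 matched genes, so 1 was added, and a locus can hold several genes. Genes averaging 1 FPKM or more in the 6 BM-AΦ libraries were put on the log2(FPKM + 1) scale and fitted by limma (version 3.58.1, R version 4.3.3), with 1 mean per group over the 18 AΦ libraries (12 residual degrees of freedom), a variance trend and Benjamini-Hochberg adjustment at 0.05. An exact permutation test (two-sided) was run on named genes and cannot give a p below 0.1 with 3 against 3 libraries. The script was tested on simulated data. Other pseudocounts, filters, scalings, sample sets and left-out libraries were tried as alternatives.

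Genes were named if past the threshold in BM-AΦ or the interaction, if among the 12 per direction with the smallest p at a mean of at least 5 FPKM with no 0 and no overlap, if highest in FPKM in a list or, per direction, smallest in p among its genes without overlap, or if singled out by the study (Fstl1, Cxcr1, Marco). A few genes that this rule names are not reported here. Other genes of the lists were picked after their values were seen. Members and lists were chosen with earlier results of these data known. Figures were drawn with matplotlib 3.10.9.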

Additional observations from a re-analysis of the deposited data

Results flagged for a closer look

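Gm26917 and Cdk8 passed the limma test of a difference in PM2.5 effect between BM-AΦ and TR-AΦ, with adjusted p of 2.78e-11 and 1.5e-07. Both rest on zeros in the 3 BM-AΦ libraries of FA mice, which can be failed estimates, so these p support neither an effect of PM2.5 nor a difference between origins. The TR-AΦ groups overlapped. The groups of Exosc8 were apart in both origins in opposite directions, lower with PM2.5 in BM-AΦ and higher in TR-AΦ. Its interaction had an adjusted p of 0.136 and did not pass.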

How the results depend on the processing

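Gm26917 and Cdk8 passed the BM-AΦ threshold under every alternative run but that which leaves them out. The number of genes past it in BM-AΦ was 2, and it was 7 with no filter on low values, 8 when only the 6 libraries compared were fitted (the other 6 being Gm15373, Gm24697, Gm26129, Gm26226, Snord35a and Snord95), and 2 to 4 when any 1 library was left out, with 4 without FA library 0, FA library 1 or PM2.5 library 0. For the interaction the number was 4 with no filter and 2 to 5 with 1 library left out, 4 without BM-AΦ FA library 0 and 5 without BM-AΦ PM2.5 library 0. When genes at 0 throughout a BM-AΦ group were left out (added with the data in view), 0 genes passed by limma in either test, with 246 at an unadjusted p under 0.05 for BM-AΦ and smallest adjusted p of 0.99986 and 0.417.

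Library numbers were not taken as pairs, since the deviations of BM-AΦ FA and PM2.5 libraries with the same number correlated by 0.0096, 0.028 and 0.070, and 2 of 3 libraries correlated best with their own number. Between BM-AΦ and TR-AΦ, which the interaction treats as independent, same-numbered libraries correlated by 0.068, 0.054 and 0.044 with FA, where 3 of 3 correlated best with their own number, and by -0.028, 0.028 and 0.049 with PM2.5, where 2 of 3 did. Over genes averaging at least 5 FPKM, these counts were 2 of 3 with FA and 0 of 3 with PM2.5. Between BM-AΦ FA and PM2.5 the count was then 1 of 3. No fit paired BM-AΦ with TR-AΦ libraries, so mice shared between the origins, if any, are not accounted for in the interaction p. With the replicate block of the BM-AΦ fit 2 genes passed, and 400 in place of 282 had an unadjusted p under 0.05.

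Of the values of single named genes under the alternatives 1111 kept their direction and side of the threshold and 37 turned sign, none of them past the threshold. The log2 fold change of Pcna was 0.0067 with median ratio scaling. Without both libraries numbered 2 (added with the data in view) it was 0.023 for Slc3a2, 0.129 for Cd14, 0.049 for Mcl1, 0.033 for Bhlhe40, 0.026 for Abcg1, 0.067 for Aldoa and 0.072 for Rpl41. With 1 library left out it ranged from -0.69 to 0.13 for Fos, -0.44 to 0.12 for Ccl6, -0.016 to 0.63 for Chil3, -0.42 to 0.047 for Epcam, -0.10 to 0.21 for Tgfb1, -0.021 to 0.42 for Hist1h4d, -0.22 to 0.31 for Fn1, -0.46 to 0.21 for Ccr7 and -0.21 to 0.15 for Atp6v0d2. The range was -0.15 to 0.52 for Pf4, -0.11 to 0.037 for Aldoa, -0.24 to 0.30 for Csf2ra, -0.15 to 0.053 for Rpl41, -0.11 to 0.048 for Pcna, -0.24 to 0.31 for Mmp8, -0.88 to 0.66 for Apoe and -1.33 to 1.55 for Hbb-bs. The cause was not tested.

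Of list medians 601 moved by less than their spread and 10 by more, namely B and plasma cell genes (0.15 with no filter, 2.94 at a mean of at least 5 FPKM, 2.79 with a pseudocount of 0.1), epithelial genes (-0.14, -0.16 and -1.73), integrated stress response (-0.10 at a mean of at least 5 FPKM), neutrophil genes (0.05 without PM2.5 library 0, -0.40 without both libraries numbered 2) and glucocorticoid targets (-0.079 without both numbered 2). FPKM give no read counts, so what depth limits could not be measured.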
